A study of Mus musculus with 6 samples.

Results

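The genes described here are 45 components of T cell receptor signalling, taken by name from the 55840 genes of the deposited table. They comprise the CD3 chains, CD4 and other surface partners, kinases, adaptors, phosphatases, a phospholipase with exchange factors, the calcium and NFAT arm, and the link from protein kinase C theta to NF-kB. All 45 passed the filter on low counts that left 14919 genes for testing. The cells were mouse regulatory T cells (Tregs) from spleen and lymph nodes. RNA-seq compared 3 libraries labelled WT with 3 labelled Exon2KO, which the series title describes as Foxp3 with a delta 2 sign. Foxp3 is the transcription factor that defines Tregs, and the label names its exon 2. No treatment is named, and the age, sex and strain of the mice and the way the allele was made are not given in the sources used here. The titles call the samples biological replicates.

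T cell receptor signalling starts when a peptide held by an MHC molecule engages the receptor, and the kinase Lck, brought by the co-receptor CD4, phosphorylates tyrosine motifs in the CD3 chains. ZAP-70 docks on those motifs and phosphorylates the scaffold LAT, around which adaptors gather phospholipase C gamma, exchange factors and Tec family kinases. The lipase makes a messenger that releases calcium, which feeds calcineurin and NFAT, and diacylglycerol, which feeds Ras and protein kinase C theta. Csk, several phosphatases and adaptors that promote receptor turnover hold the pathway back. Tregs need receptor signals for their development and for suppression.

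Libraries are named by genotype and by the number in their column name (2, 6 or 20), which each genotype has once. Foxp3 was at 783, 602 and 751 CPM (counts scaled to a common library size, with TMM factors) in WT 2, 6 and 20 and at 826, 684 and 925 CPM in Exon2KO 2, 6 and 20. A count over the whole gene does not show whether exon 2 is present, so it does not check the genotype labels. Cd4 was at 632 CPM or more in every library and of the CD8 chains Cd8a was at 1.91 CPM or less and Cd8b1 at 7.18 to 12.3 CPM. Total counts ran from 17998216 to 21003496 per library, and the smallest count of any of the 45 genes in any library was 471. Along the first principal component, with 33.2% of the variance over all tested genes, both libraries numbered 20 stood apart from the others. Along the second, with 29.9%, the genotypes separated, at 19.96 to 31.2 in WT and -33.93 to -15.89 in Exon2KO.

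Most of the 45 genes did not pass the test between genotypes. Themis, Txk and Pag1, 2 adaptors and a Tec family kinase, rose in Exon2KO at an adjusted p under 0.05, which is 3 of the 45 (6.67%), and none fell. Over all tested genes 0.757% were called higher, 1.58% lower and 2.33% in either direction. At an unadjusted p under 0.05 edgeR gave 8 of the 45 higher and 3 lower (24.4%), against 12.1% of all tested genes in either direction. DESeq2 and limma-voom also called 3, all higher. Libraries with the same column number deviated together, so the number was also entered as a replicate block. With that block 10 of the 45 (22.2%) were called, 6 higher and 4 lower, against 3.93% higher and 5.79% lower among all tested genes. All tested genes include some with far lower counts than any of the 45. The shares here and below were not matched for abundance, and its part in them was not tested. The genes added were Grap2, Prkcq and Rasgrp1 (higher) and Cd2, Sla, Sla2 and Ubash3b (lower). The log2 fold changes of the 45 had a median of 0.08, with 31 positive and 14 negative, beside a median of 0.0084 over all tested genes, with 7726 positive and 7193 negative. Without WT 2 the median of the 45 was 0.041. Their interquartile range was -0.0060 to 0.19, and that of all tested genes -0.15 to 0.13.

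**Figure D1:**
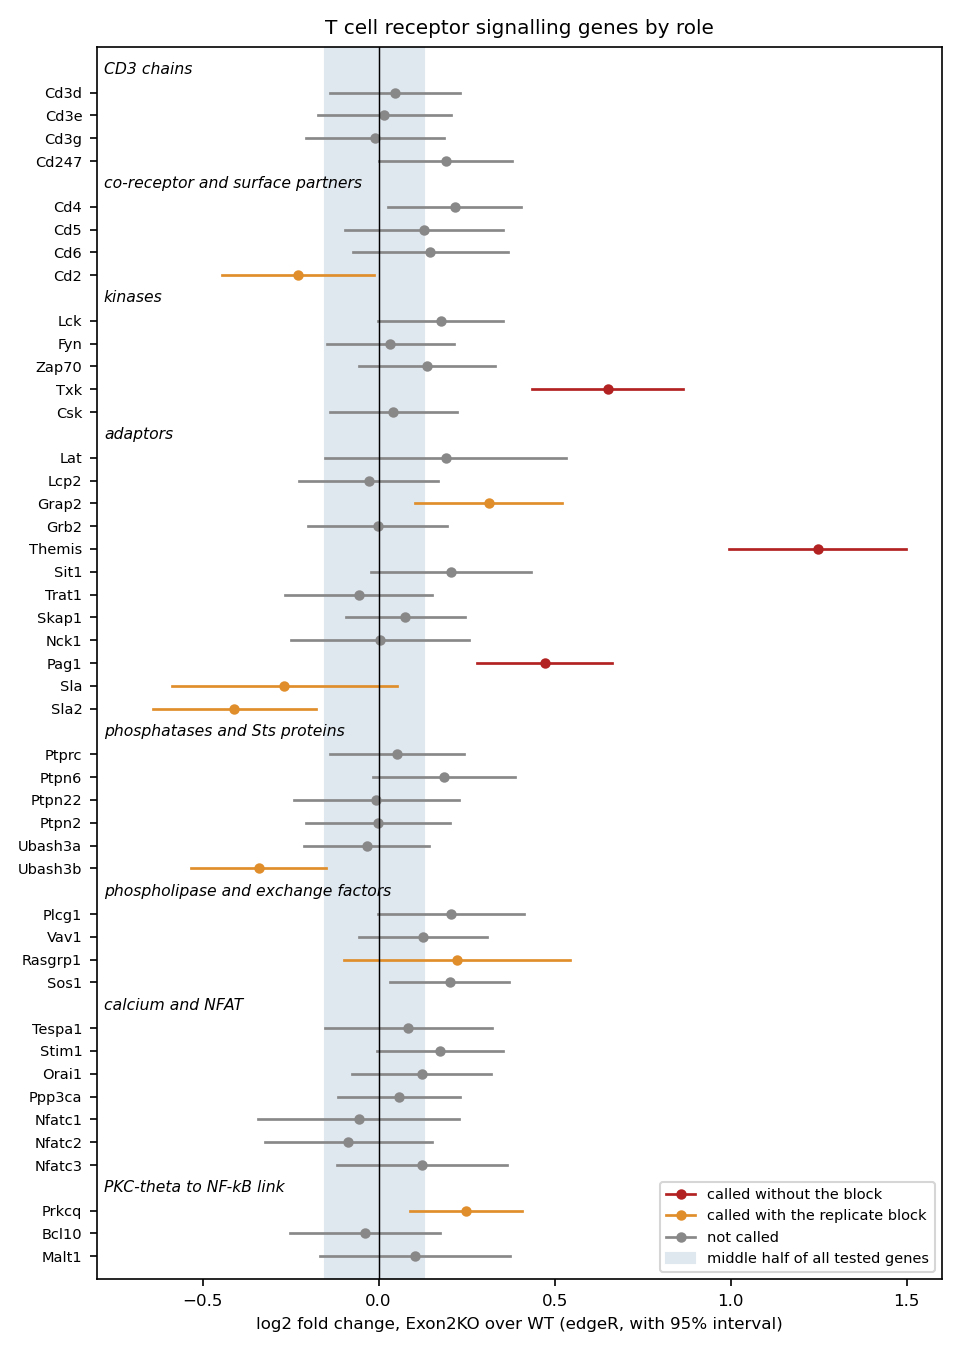
Log2 fold change (Exon2KO over WT, edgeR) with its 95% interval for each of the 45 genes, grouped by role; red marks genes called without the replicate block, orange those called with it, and the band is the interquartile range of all tested genes. Themis, Txk and Pag1 lie to the right of the band, and Cd3d, Cd3e and Cd3g sit close to 0.

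Markers of cell state moved with the genotype in the same libraries. Of 8 Treg markers 6 fell, where 1.58% of all tested genes were called lower. With the block 7 were called lower, against 5.79% of all tested genes. Foxp3 was the 1 marker with a positive estimate, 0.19, and was not called in either fit. The summed level of the 8 was 3084 to 3564 CPM in WT and 2299 to 2895 CPM in Exon2KO. Of 9 genes typical of resting T cells, a list added after the data had been seen, 4 rose (Tcf7, Satb1, S1pr1 and Klf2) and none fell. Over all tested genes 0.757% were called higher. With the block 8 of the 9 were called higher and 1, Il7r, lower, against 3.93% and 5.79% of all tested genes. The summed level of the 9 was 2787 to 3047 CPM in WT and 4004 to 4146 CPM in Exon2KO. The part of these markers in the results below was not tested. In bulk RNA, a changed share of cells in one state and a changed amount of RNA per cell cannot be told apart. Markers of CD8 and NK cells summed to 19.9 to 21.6 CPM in WT and 21.5 to 33.8 CPM in Exon2KO. Exon2KO 6 stood apart there, with Eomes at 22.5 CPM against 4.55 to 7.27 CPM in the other 5 libraries. Gzmk, which did not pass the count filter and is not in the sum, had 425 counts in Exon2KO 6 and 19 or fewer in each other library. Markers of B cells summed to 41.8 to 47.8 and 34.4 to 37.1 CPM, and those of myeloid cells to 35.1 to 80.3 and 30.2 to 65.2 CPM. No gene of these 3 lists was called without the block, and of the tested genes 1 B cell and 1 myeloid marker were called lower with it. Erythroid and stromal markers summed to 179 to 199 CPM in WT and 198 to 232 CPM in Exon2KO, nearly all of it Pecam1, at 177 ± 12.8 and 209 ± 19.9 CPM (SD, n = 3 each). None of their 5 tested genes was called without the block, 2 had an unadjusted edgeR p under 0.05, and Pecam1 was called higher with the block (edgeR adjusted p = 0.0164). Col1a1, a collagen gene of stromal cells, was at 2.03 ± 0.88 and 0.88 ± 0.48 CPM (SD, n = 3 each).

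Themis encodes a T lineage adaptor that binds Grb2 and is required for thymocyte selection, and it changed most of the 45. It lies on chromosome 10, 28668360 to 28883818, plus strand (GRCm38). It was at 32.1, 36.8 and 32.8 CPM in WT 2, 6 and 20 and at 79.4, 91.9 and 69.7 CPM in Exon2KO 2, 6 and 20. Every Exon2KO library lay far above every WT library. The means were 33.9 ± 2.56 and 80.3 ± 11.1 CPM (SD, n = 3 each), and the fitted difference was 2.37-fold. On the log2 scale edgeR estimated 1.25 with SE 0.11 and an adjusted p of 0.00118. The call held in all 6 fits that each left out 1 library, with estimates from 1.13 to 1.34 and edgeR adjusted p-values up to 0.0168.

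Txk encodes a Tec family kinase that acts on phospholipase C gamma. It lies on chromosome 5, 72695978 to 72752777, minus strand. It was at 53.4, 47.6 and 53.0 CPM in WT 2, 6 and 20 and at 84.0, 71.4 and 86.5 CPM in Exon2KO 2, 6 and 20. The groups did not overlap, and number 6 was the lowest library of both genotypes. Mean levels were 51.3 ± 3.25 and 80.6 ± 8.12 CPM (SD, n = 3 each), and the edgeR estimate was 0.65 (SE 0.095) with an adjusted p of 0.0091. Without Exon2KO 2 the estimate was 0.61 and the edgeR adjusted p 0.0638, so the call was lost there, and it held in the other 5 fits that left out 1 library.

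The promoters of Themis and Txk are shown because these genes rose most and their listed starts coincide with those of the RefSeq sequences (GRCm38.p6, 250 bases before to 50 bases after the start). Capitals mark matches, on either strand, to 4 sets of letters: TAAACA (forkhead), GGAAG (ETS), TGTGGT (RUNX) and CAAAG (TCF1 and LEF1). The Themis window is chr10:28668110-28668409 (plus strand) and the Txk window chr5:72752728-72753027 (minus strand), both printed 5′ to 3′ along the gene.
Themis: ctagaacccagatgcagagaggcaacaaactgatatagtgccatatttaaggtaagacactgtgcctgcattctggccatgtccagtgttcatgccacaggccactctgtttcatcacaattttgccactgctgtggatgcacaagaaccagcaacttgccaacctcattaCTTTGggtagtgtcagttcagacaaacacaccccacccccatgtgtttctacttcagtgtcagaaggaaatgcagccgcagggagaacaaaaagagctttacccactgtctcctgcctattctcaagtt
Txk: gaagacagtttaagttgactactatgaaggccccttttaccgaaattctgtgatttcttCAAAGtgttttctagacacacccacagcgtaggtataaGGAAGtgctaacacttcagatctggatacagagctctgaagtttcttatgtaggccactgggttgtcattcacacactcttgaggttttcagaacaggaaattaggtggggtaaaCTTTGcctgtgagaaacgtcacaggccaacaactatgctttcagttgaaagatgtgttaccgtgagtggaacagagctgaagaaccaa

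The Themis window held 1 match, to the TCF1 and LEF1 letters on the reverse strand. The Txk window held 2 matches to the TCF1 and LEF1 letters, 1 on each strand, and 1 to the ETS letters. Neither window held the forkhead or RUNX letters, and a match describes the sequence, not binding. RefSeq windows of 300 bases matched 34 of the 45 genes. The forkhead letters occurred in 5 of these 34 (14.7%) and in 13.4% of 32841 promoters. For TCF1 and LEF1 it was 20 of 34 (58.8%) and 53.9%, for ETS 73.5% and 71.4%, and for RUNX 14.7% and 16.8%.

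Pag1 encodes a membrane adaptor that anchors Csk, the kinase that places the inhibitory phosphate on Lck. It lies on chromosome 3, 9687479 to 9833679, minus strand. It was at 116, 102 and 121 CPM in WT 2, 6 and 20 and at 151, 153 and 166 CPM in Exon2KO 2, 6 and 20, with no overlap. Mean levels were 113 ± 9.99 and 157 ± 8.13 CPM (SD, n = 3 each), and edgeR gave an estimate of 0.47 (SE 0.085, adjusted p = 0.0232). The call held without WT 20 and was lost in each of the other fits that left out 1 library, while the estimate stayed between 0.40 and 0.52. There the edgeR adjusted p was 0.0913 without WT 2, 0.0683 without WT 6, 0.0975 without Exon2KO 2, 0.0592 without Exon2KO 6 and 0.0626 without Exon2KO 20. Csk itself was at 426 ± 24.4 and 439 ± 24.9 CPM (SD, n = 3 each), with an estimate of 0.042 (95% interval -0.14 to 0.22).

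Without both libraries numbered 20, the same 3 genes were called, at estimates of 1.31 (Themis), 0.62 (Txk) and 0.48 (Pag1). The authors' deposited table lists these 3 of the 45, and no other, with an adjusted p under 0.05, at log2 fold changes of 1.25, 0.65 and 0.47.

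**Figure D2:**
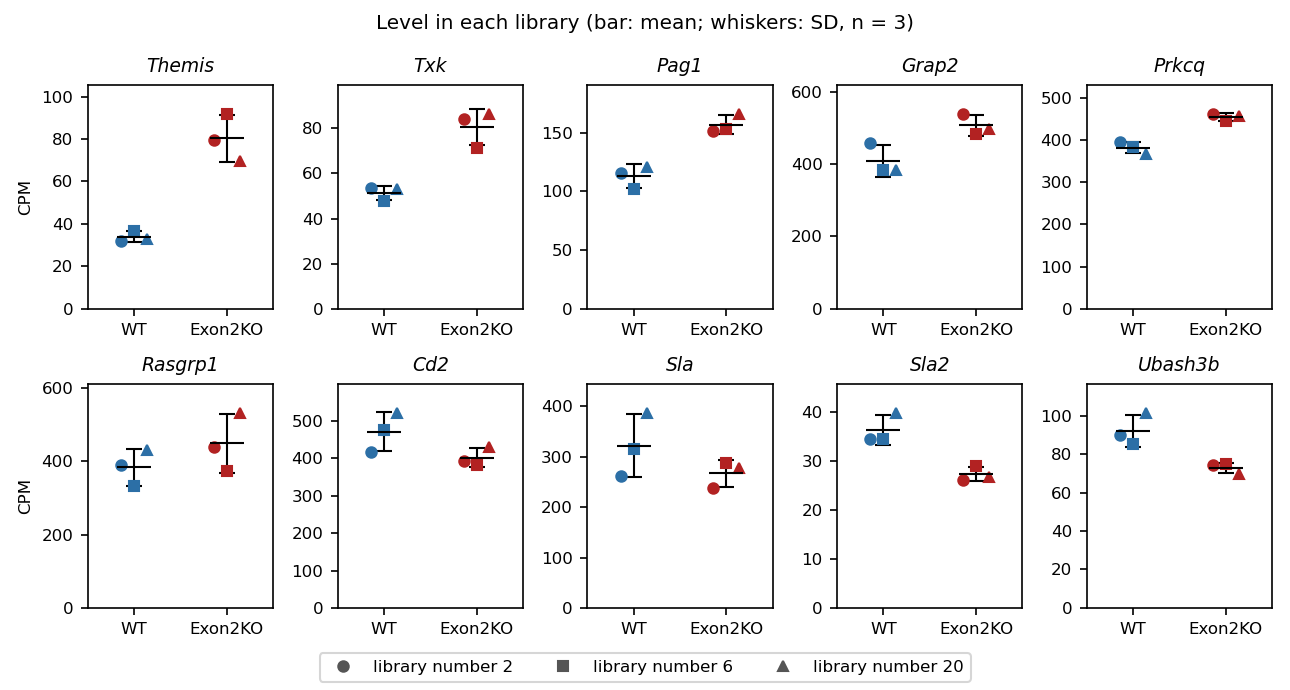
CPM in each library for the 10 genes called without the block (Themis, Txk, Pag1) or with it, with the mean (bar) and SD (whiskers) of 3 libraries and a symbol for each column number; each panel starts at 0. For Themis, Txk and Pag1 every Exon2KO library lies above every WT library, and for Rasgrp1, Cd2 and Sla the groups overlap.

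The CD3 chains, which carry the receptor's signalling motifs, were not called. Cd3g, Cd3d and Cd3e are neighbours on chromosome 9, from 44969572 to 45009627. Cd3d was at 331, 392 and 345 CPM in WT 2, 6 and 20 and at 366, 373 and 363 CPM in Exon2KO. Cd3e was at 366, 399 and 388 CPM in WT and at 383, 423 and 360 CPM in Exon2KO. Cd3g was at 373, 443 and 411 CPM in WT and at 385, 400 and 433 CPM in Exon2KO. The groups overlapped for all 3. Their estimates were 0.045 (95% interval -0.14 to 0.23), 0.016 (-0.17 to 0.20) and -0.010 (-0.21 to 0.19), so each interval leaves out a change of the size seen in Pag1. Cd247, the zeta chain, lies on chromosome 1, 165788681 to 165877277. It was at 232, 267 and 264 CPM in WT and at 274, 308 and 288 CPM in Exon2KO, with no overlap. Its estimate of 0.19 (SE 0.084) missed the threshold, with an edgeR adjusted p of 0.405, and 0.0555 with the block, and was 0.13 without WT 2. Pou2f1 overlaps Cd247 on the opposite strand, with 6370 counts over all libraries against 30838 for Cd247, so some reads are uncertain; Pou2f1 had an estimate of 0.14.

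Constant genes of the receptor chains were given by 3 further genes. Trac and Trbc1 had estimates of 0.070 and 0.089 and were not called. Trbc2 had an estimate of 0.29 and an edgeR adjusted p of 0.155, and was called higher with the block (0.0178). Trbc1 and Trbc2 are near-identical copies, so the split of reads between them is uncertain.

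Among the surface partners, Cd4 was at 632, 643 and 724 CPM in WT 2, 6 and 20 and at 746, 820 and 756 CPM in Exon2KO, with no overlap. Its estimate was 0.22 (SE 0.084), with an edgeR adjusted p of 0.315, and 0.0665 with the block, short of the threshold in both. Cd2, an adhesion receptor that binds CD48 in the mouse, was at 417, 477 and 522 CPM in WT and at 393, 383 and 431 CPM in Exon2KO. WT 2 lay below Exon2KO 20, so the groups overlapped, and within each number Exon2KO was the lower library. The edgeR estimate was -0.23 (SE 0.097, adjusted p = 0.372), and with the block it was called lower at -0.22 (SE 0.066, adjusted p = 0.0433). Without WT 20 the estimate was -0.15. Cd5 and Cd6, scavenger receptor family members that restrain receptor signals, had estimates of 0.13 and 0.15 and were not called in either fit.

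Of the 5 kinases, all had a positive estimate and Txk alone was called. Lck was at 874, 963 and 911 CPM in WT 2, 6 and 20 and at 976, 1063 and 1067 CPM in Exon2KO. The Exon2KO libraries were all above the WT libraries, by a small margin, and edgeR estimated 0.18 (SE 0.079) with an adjusted p of 0.413, and 0.116 with the block. Zap70 was at 387, 401 and 348 CPM in WT and at 413, 446 and 390 CPM in Exon2KO, with overlap. It had an estimate of 0.14 (SE 0.086) and an edgeR adjusted p of 0.635, and 0.200 with the block. The estimate was 0.078 without WT 20 and 0.074 without Exon2KO 6. Fyn, the other Src family kinase of the pathway, had an estimate of 0.033.

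Among the 12 adaptors, the block added 1 call upward and 2 downward to Themis and Pag1. Grap2, also named Gads, ties the adaptor Lcp2 (SLP-76) to LAT. It was at 458, 382 and 384 CPM in WT 2, 6 and 20 and at 539, 484 and 497 CPM in Exon2KO, where the lowest library lay just above WT 2. The edgeR estimate was 0.31 (SE 0.093, adjusted p = 0.16), and with the block 0.32 (SE 0.063, adjusted p = 0.00409). Gm49553 overlaps Grap2 on the same strand, with 1952 counts over all libraries against 51579 for Grap2.

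Sla and Sla2 encode Src-like adaptors that work with the ubiquitin ligase Cbl to lower receptor levels, and both were called lower with the block. Sla2 was at 34.5, 34.5 and 39.7 CPM in WT and at 26.2, 29.0 and 26.7 CPM in Exon2KO, with no overlap. Its edgeR estimate was -0.41 (SE 0.10, adjusted p = 0.0872), and with the block -0.41 (SE 0.091, adjusted p = 0.00875). Rab5if overlaps Sla2 on the opposite strand, with 3981 counts over all libraries against 3627 for Sla2. The use of strand in counting is not given in the sources used here, so reads of this pair cannot be told apart; Rab5if had an estimate of 0.053. Sla was at 263, 316 and 387 CPM in WT and at 237, 288 and 277 CPM in Exon2KO. The groups overlapped, and within each number Exon2KO was lower. For Sla edgeR gave -0.27 (SE 0.14, adjusted p = 0.538), and with the block -0.26 (SE 0.072, adjusted p = 0.0389). Without WT 20 the estimate was -0.11, and without both libraries numbered 20 it was -0.14.

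Lat was at 592, 718 and 491 CPM in WT 2, 6 and 20 and at 689, 774 and 591 CPM in Exon2KO. It was higher in Exon2KO within each number, and number 6 was the highest and number 20 the lowest library of both genotypes. The edgeR estimate was 0.19 (SE 0.15, adjusted p = 0.747), and with the block 0.20 (SE 0.065, adjusted p = 0.0699). The estimate was 0.063 without WT 20, 0.083 without Exon2KO 6 and 0.34 without WT 6. The remaining 6 adaptors were not called in either fit. Their estimates ran from -0.057 for Trat1 to 0.20 for Sit1, both transmembrane adaptors. Lcp2 and Grb2, which link LAT to its effectors, had estimates of -0.028 and -0.0021, Skap1 of 0.076 and Nck1, which connects to the actin cytoskeleton, of 0.0048.

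Of the 6 phosphatases and Sts proteins, Ubash3b alone was called, and with the block only among these 2 fits. Ubash3b, also named Sts-1, removes activating phosphates from ZAP-70. It was at 90.1, 85.2 and 101 CPM in WT 2, 6 and 20 and at 74.2, 74.6 and 69.6 CPM in Exon2KO. The groups did not overlap, and the Exon2KO libraries lay close together. The edgeR estimate was -0.34 (SE 0.085, adjusted p = 0.0854), and with the block -0.34 (SE 0.073, adjusted p = 0.00687). Its relative Ubash3a had an estimate of -0.034 (95% interval -0.21 to 0.14), and the difference between the relatives was not tested. Ptprc, which encodes CD45 and clears the inhibitory phosphate from Lck, was at 2170 ± 174 and 2248 ± 63.7 CPM (SD, n = 3 each), with an estimate of 0.051. Ptpn22, Ptpn2 and Ptpn6 (Shp-1), which dephosphorylate proximal signalling proteins, had estimates of -0.0060, -0.0022 and 0.19.

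Below LAT, the phospholipase and the 3 exchange factors all had positive estimates, from 0.13 to 0.22. Rasgrp1, the Ras exchange factor that diacylglycerol recruits, was at 390, 332 and 432 CPM in WT 2, 6 and 20 and at 440, 375 and 532 CPM in Exon2KO. The groups overlapped, while each Exon2KO library was above the WT library of its number. The edgeR estimate was 0.22 (SE 0.14, adjusted p = 0.643), and with the block 0.22 (SE 0.062, adjusted p = 0.0389). Without Exon2KO 20 the estimate was 0.078, and without WT 6 it was 0.13. Plcg1, the lipase, had an estimate of 0.21 and an edgeR adjusted p of 0.418, and 0.0505 with the block. Vav1, an exchange factor for Rac, and Sos1, one for Ras, had estimates of 0.13 and 0.20 and were not called.

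Prkcq, which encodes protein kinase C theta, was at 396, 385 and 367 CPM in WT 2, 6 and 20 and at 463, 444 and 456 CPM in Exon2KO. Both groups were tight and did not overlap. The edgeR estimate was 0.25 (SE 0.071, adjusted p = 0.14), and with the block 0.25 (SE 0.062, adjusted p = 0.0171). Its downstream partners Bcl10 and Malt1, which act together in a complex that activates NF-kB, had estimates of -0.039 and 0.10 and were not called.

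None of the 7 calcium and NFAT genes was called in either fit, and none had an unadjusted edgeR p under 0.05. Stim1, the calcium sensor of the endoplasmic reticulum, had an estimate of 0.18, and the channel Orai1 that it opens one of 0.12. The calcineurin subunit Ppp3ca had an estimate of 0.059 and Tespa1, which takes part in calcium release, of 0.085. The transcription factors Nfatc1, Nfatc2 and Nfatc3 had estimates of -0.057, -0.086 and 0.12.

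**Figure D3:**
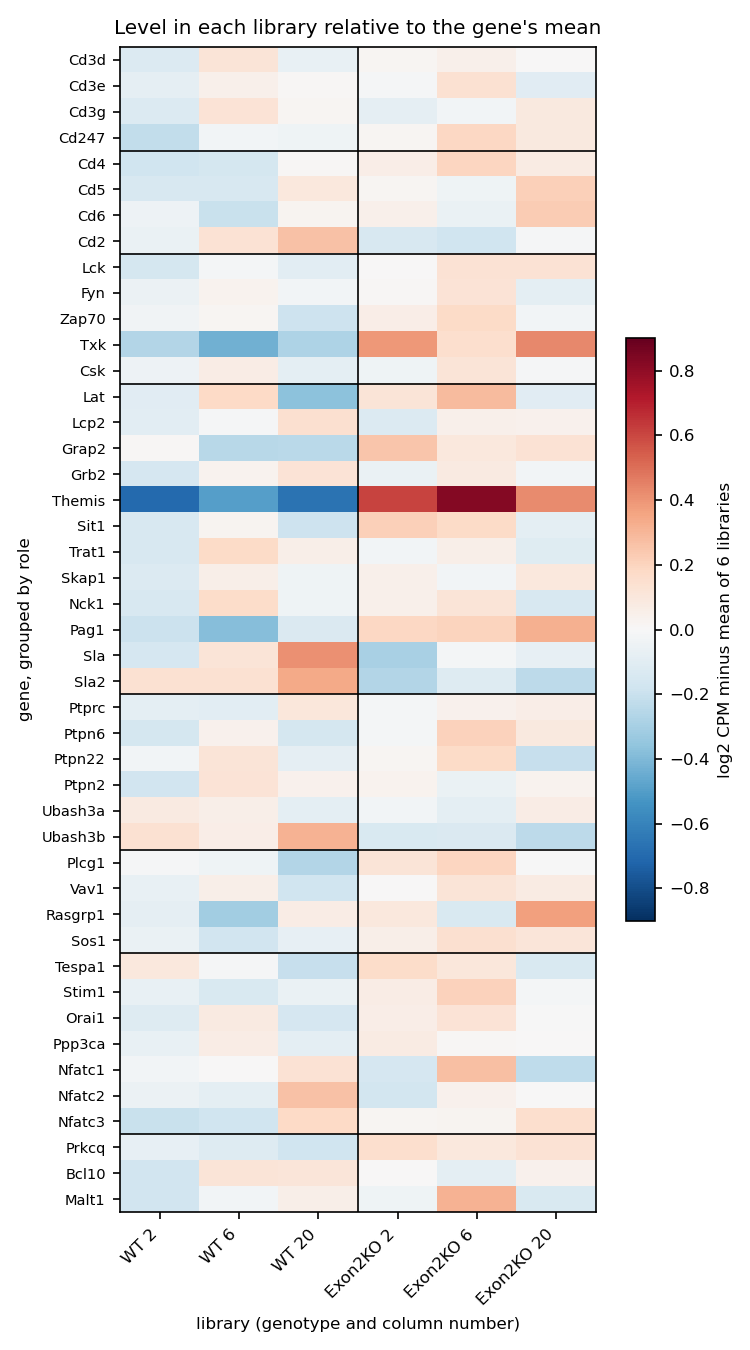
Log2 CPM of each of the 45 genes (rows, grouped by role) in each library (columns), minus the gene's mean over the 6 libraries. Themis, Txk and Pag1 split by genotype across the vertical line, while Lat is lowest and Rasgrp1 highest in the library numbered 20 of each genotype.

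Levels were compared between genes as counts per kilobase of listed gene length, scaled to the library total. In WT, Lck was the highest of the 45 on this scale at 315.9, followed by Cd2 at 273.8, Lat at 219, Cd3d at 198 and Cd4 at 167 (means of 3 libraries). Themis was the lowest at 2.93 ± 0.20 and Txk the next at 4.74 ± 0.33 (SD, n = 3 each). Sos1 at 5.37, Ppp3ca at 6.81 and Nck1 at 7.82 came next. The 2 genes with the largest rise were thus the least abundant per length in WT. In Exon2KO, Themis was at 6.78 ± 0.94 and Txk at 7.26 ± 0.74 (SD, n = 3 each). They stood among Sos1 at 6.03 ± 0.18, Ppp3ca at 6.92 ± 0.19 and Nck1 at 7.66 ± 0.69 (SD, n = 3 each). Themis overlapped all 3 of these genes over the libraries, while every Txk library was above every Sos1 library.

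Differences between the column numbers were examined after the data had been seen. In the fit with genotype and number, 4 of the 45 genes (8.89%) differed between numbers at an edgeR adjusted p under 0.05, against 10.4% of all tested genes. Rasgrp1 and Sla were higher in the libraries numbered 20 than in the others, by 0.33 and 0.26 in mean log2 CPM. Lat and Tespa1 were lower there, at -0.36 and -0.26. Themis, Txk and Pag1 were not among the 4, with edgeR adjusted p-values of 0.0988, 0.15 and 0.255 for the number. The genotypes' libraries did not overlap for 13 of the 45 genes (28.9%), 11 with higher and 2 with lower values in Exon2KO, and over all tested genes this held for 17.7%.

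Of 79 other genes of the pathway, 78 were tested, and 3 were called higher and 1 lower (5.13% called, against 2.33% of all tested genes). With the block 13 were higher and 4 lower (21.8% called, against 9.72% of all tested genes). The median estimate without the block was 0.034, beside 0.0084 over all tested genes. Dgka, a diacylglycerol kinase that damps Ras and protein kinase C signals, rose from 1269 ± 63.8 to 1698 ± 90.1 CPM (SD, n = 3 each; edgeR estimate 0.42, adjusted p = 0.0307). Pmel overlaps Dgka on the opposite strand, with 6234 counts over all libraries against 167201 for Dgka, and had an estimate of 0.44. Rhoh, a GTPase that aids ZAP-70 recruitment, fell from 276 ± 2.94 to 222 ± 1.89 CPM (SD, n = 3 each; edgeR estimate -0.31, adjusted p = 0.044). Both calls were lost in each fit that left out 1 library, at edgeR adjusted p-values up to 0.172 (Dgka) and 0.199 (Rhoh). The estimates there stayed between 0.38 and 0.45 for Dgka and between -0.32 and -0.30 for Rhoh. Both calls were also lost without both libraries numbered 20, at 0.0917 and 0.129. Dusp6, a phosphatase of the MAP kinase ERK, rose from 66.2 ± 5.36 to 99.5 ± 15.8 CPM (SD, n = 3 each; edgeR estimate 0.59, adjusted p = 0.0347). Its call was lost without WT 2 (0.16), WT 6 (0.138) or Exon2KO 2 (0.0769), and with limma-voom (0.0515). Over all fits that left out 1 library its estimate ran from 0.45 to 0.66. The column numbers also differed for Dusp6 (edgeR adjusted p = 0.0312).

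By sub-list, the 25 other kinases and adaptors held 3 of these calls, Dgka and Rhoh among them, and the 18 tested Ras and MAP kinase genes held Dusp6 and had 17 positive estimates. The 19 other calcium and NFAT genes and the 13 other NF-kB arm genes had no edgeR call without the block, and 4 and 2 calls with it, where 9.72% of all tested genes were called. Their shares with an unadjusted edgeR p under 0.05, 3 of 19 (15.8%) and 2 of 13 (15.4%), were near the 12.1% of all tested genes. Orai2 and Orai3, relatives of the channel Orai1, had estimates of 0.28 and -0.44 and were called in these opposite directions with the block.

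**Figure D4:**
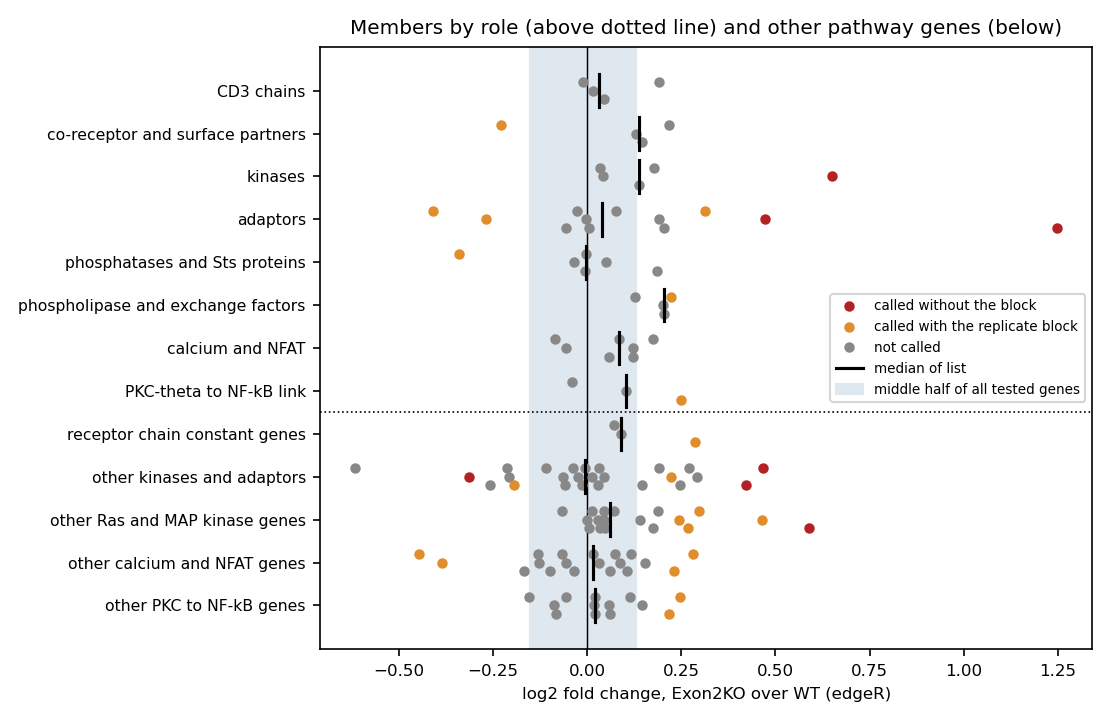
Log2 fold change (Exon2KO over WT, edgeR) of each gene by role (above the dotted line) and of other pathway genes by sub-list (below), with list medians as black bars and colours for calls without the block (red) or with it (orange). Calls without the block lie in the kinase, adaptor and Ras lists, and none lies in the CD3 or calcium lists.

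Genes that receptor signals induce were listed as a readout of the pathway. Of 12 tested, Batf, Tnfrsf4 and Tnfrsf9 fell and none rose, where 1.58% of all tested genes were called lower and 0.757% higher. With the block 4 were lower, with Irf4 added, and 2 higher (Egr1 and Cd69), where the shares of all tested genes were 5.79% and 3.93%. Irf4 had an estimate of -0.34 with the block (edgeR adjusted p = 0.00455). The nuclear receptors Nr4a1, Nr4a2 and Nr4a3 had estimates of 0.43 (SE 0.77), 0.031 (SE 1.04) and -0.013 (SE 0.22). With the block these were 0.26 (SE 0.16), -0.19 (SE 0.19) and -0.023 (SE 0.069), and none was called in either fit. For 9 of the 12 the column numbers differed, as they did for 10.4% of all tested genes. Nr4a1 was at 573.6 and 922.8 CPM in WT 20 and Exon2KO 20 and between 224.5 and 255.3 CPM in the other libraries.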

How the data were processed

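RNA-seq counts per gene, as deposited by the authors, are whole numbers that were not normalized. The authors' deposited table also gives a log2 fold change and p-values. The submitters' processing notes name HISAT2 2.0.5, StringTie 1.3.3b, featureCounts 1.5.0-p3, DESeq2 1.16.1 and mm10, with no role; the strand setting is not given in the sources used here. All 45 positions equal those of GENCODE mouse release 21 (GRCm38). The 6 deposited FPKM columns were not used, and levels per length were computed from the counts and the listed gene length.

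Counts were tested with edgeR 4.0.16 in R 4.3.3, Exon2KO against WT: filterByExpr, TMM, robust quasi-likelihood test, two-sided, Benjamini-Hochberg adjustment over all 14919 tested genes, called under 0.05. Estimates are log2 fold changes, and SE is their size over the root of the F statistic. The edgeR fit without the block was tested on simulated counts that held no effect of the column number. The other fits were not tested in this way.

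The column numbers 2, 6 and 20 are not the titles' replicate numbers, so columns were assigned to genotypes alone, and no label says what the numbers stand for. Deviations of same-numbered libraries from their group means correlated across genes (0.373, 0.430 and 0.560), so the number was taken as pairing and entered as a block. Replicates differed by more than sampling noise (chi-square per degree of freedom 8.12 to 23.6).

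The members and lists were chosen with earlier results of these data known. Values in every library are given for members called with or without the block, members changed by at least 0.5 on the log2 scale, and the CD3 chains, Cd4, Lck, Zap70 and Lat; of other pathway genes the called ones are named, except 1 that is not reported here. Orai2, Orai3, the constant genes and Nr4a1, Nr4a2, Nr4a3, Egr1, Cd69 and Irf4 were chosen after their values were seen. Alternatives were other count filters, RLE and upper-quartile scaling, DESeq2 1.42.0, limma-voom (limma 3.58.1), the block, leaving out each library and, chosen after seeing the data, leaving out both libraries numbered 20.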

Additional observations from a re-analysis of the deposited data

How the results depend on the processing

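Among the 45 genes, the 3 called became 5 with no count filter (Sla2 and Ubash3b added, both lower), 10 with the replicate block, and 1 to 3 when a library was left out. Themis, Txk and Pag1 were the 3 called with at least 10 counts in every library, RLE or upper-quartile scaling, DESeq2, limma-voom, and without both libraries numbered 20. All genes called, 348 without the block, were 617 with no filter, 649 with DESeq2 (which, also without that filter, tested 26765 genes), 1450 with the block and 86 to 314 when a library was left out. Other pathway genes called, 4 without the block, were 17 with it and 0 to 3 when a library was left out. The 0 came from edgeR without Exon2KO 2, where 12 of these genes (15.4%) had an unadjusted p under 0.05, against 8.64% of all tested genes. The median of the 45 genes ran from 0.041 (without WT 2) to 0.10 (without WT 6). The causes were not tested. Of 14 alternatives, Themis was called in 14, Txk in 13 and Pag1 in 9. Signs near 0 reversed when a library was left out for Cd3d (-0.0082 to 0.12), Cd3e (-0.059 to 0.065) and Cd3g (-0.077 to 0.053). The median over all genes shifted by less than 0.1 on the log2 scale under RLE (to 0.0095) and upper-quartile scaling (to -0.0068).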
